A study of Mus musculus with 4 samples.

Results

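The 9 genes described here encode surface proteins of lymphocytes and of leukocytes in general: Thy1, the CD3 chains Cd3d, Cd3e and Cd3g, the coreceptors Cd4 and Cd8a, the B cell antigen receptor chain Cd79b, and Cd48 and Cd53. They were taken from the 13544 mouse genes with a value on every array, as all probes that the platform annotation assigns to a single one of these symbols. All 9 genes had a probe, 11 probes of 28845 on the array, and none of the 11 had a missing value. The genes were chosen with their ratios of diet over chow known, since the fall of Thy1 prompted the question whether other T cell genes share it. Their ratios over chow are therefore described without a test, and tests are given for the added high fat, for duration, and for lists of other genes.

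The samples were livers of male mice of the inbred strain C57Bl/6J, whose amplified RNA was hybridised to 4 arrays read in 2 colours. Feeding was with an atherogenic diet (here the plain diet) or with an atherogenic diet combined with high fat (here high fat), for either 6 or 24 weeks. Pairs of values for 1 diet are given in the order 6 and 24 weeks. Each array set 1 diet and duration, in Cy5, against liver of chow-fed mice, in Cy3. The chow mice had been fed for the same number of weeks according to the labels, except on the plain 6-week array, where the labels give no duration for chow. No condition had a second array and no dyes were swapped, so a probe's preference for a dye cannot be told apart from an effect of diet. Whether arrays shared a chow sample, how many mice each RNA came from and what the diets contained is not stated in the labels. Values are log2 ratios of diet over chow. Their size rests on reading the deposited logarithms as base 10, and their direction on the dye labels. Between 27951 and 28806 probes had a value on an array, and the median log2 ratio of all genes lay between -0.01 and 0.05 on the 4 arrays. Probes spread more widely under the plain diet (SD of 0.53 at 6 weeks and 0.46 at 24 weeks) than under high fat (0.37 and 0.39). Ratios hold no levels, so the tissue could not be checked against liver markers, and a gene that liver barely expresses cannot be set apart from an abundant one.

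T cells recognise peptides through a receptor that signals through the CD3 chains, with CD4 or CD8 as coreceptor for MHC class II or class I. Thy1 is a small glycosylphosphatidylinositol-anchored protein of mouse T cells, and it is also made by neurons and by some fibroblasts, among them portal fibroblasts of the liver. B cells signal through CD79A and CD79B. Cd48, a SLAM family receptor, and Cd53, a tetraspanin, lie on nearly all leukocytes, myeloid cells included. Liver holds resident T, B and natural killer cells beside Kupffer cells, and in RNA of whole tissue fewer cells of a type and less RNA per cell cannot be told apart.

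The values of the 9 genes fall apart into a single very low gene, a pair of high genes and a group close to chow, and the promoters of the pair are shown here with that of Cd3d, a T cell gene above chow on all 4 arrays. They are the 250 bases before the start of transcription in RefSeq (GRCm38.p6), read 5′ to 3′ on the strand of the gene. Capitals mark TGTGGT, the core motif of RUNX factors. Cd53 lies on the minus strand, at chr3:106790150-106790399, Cd48 on the plus strand, at chr1:171681742-171681991, and Cd3d on the plus strand, at chr9:44981536-44981785.
Cd53: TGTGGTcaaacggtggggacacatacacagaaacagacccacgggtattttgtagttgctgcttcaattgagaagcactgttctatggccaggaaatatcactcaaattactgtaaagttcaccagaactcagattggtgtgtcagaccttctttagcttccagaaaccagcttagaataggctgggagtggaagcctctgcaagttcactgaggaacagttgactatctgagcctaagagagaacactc
Cd48: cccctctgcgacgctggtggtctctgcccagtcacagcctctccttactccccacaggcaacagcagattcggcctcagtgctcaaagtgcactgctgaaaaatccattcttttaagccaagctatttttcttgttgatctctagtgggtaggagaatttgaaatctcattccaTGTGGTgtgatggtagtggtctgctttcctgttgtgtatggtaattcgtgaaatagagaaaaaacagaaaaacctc
Cd3d: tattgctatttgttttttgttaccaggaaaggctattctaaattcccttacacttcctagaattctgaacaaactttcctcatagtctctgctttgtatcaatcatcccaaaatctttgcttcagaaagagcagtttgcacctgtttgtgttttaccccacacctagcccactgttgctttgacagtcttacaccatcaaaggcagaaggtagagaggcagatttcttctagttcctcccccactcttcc
The table of promoters held 6 of the 9 genes, Cd3d, Cd3e, Cd3g, Cd8a, Cd48 and Cd53, each as a window of 300 bases that includes 50 transcribed bases, not shown here. Both strands of these windows were searched for 3 motifs, chosen after the sequences and ratios had been seen. TGTGGT was found in 2 of the 6, Cd48 and Cd53, and in 16.8% of all 32851 windows. The PU.1 motif GAGGAAGT was found in Cd53 alone of the 6, on the opposite strand 7 to 14 bases into the transcript, and in 3.2% of all windows. The ETS motif CCGGAAGT was found in Cd48 alone, on the opposite strand at bases 6 to 13, and in 3.89% of all windows. These are matches of letters only.

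Thy1 had log2 ratios of -1.83 on the plain 6-week array, -3.81 on the high-fat 6-week array, -3.17 on the plain 24-week array and -3.12 on the high-fat 24-week array. All 4 values lay far below chow, and the plain 6-week array was the least low. The mean was -2.98 ± 0.83 (SD, 4 arrays), 7.91-fold lower than chow if the logarithms are base 10. By its mean Thy1 ranked 3 from the lowest of all genes, and it ranked 3 from the lowest on each array except the plain 6-week array, where it ranked 24. The value comes from 1 probe.

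None of the other T cell surface genes came near Thy1. Cd3e, the CD3 chain shared by all T cell receptors, stood at 0.25 (6 weeks) and 0.20 (24 weeks) under the plain diet, and under high fat at -0.34 and -0.17. Its mean was -0.02 ± 0.28 (SD, 4 arrays), with both plain arrays above chow and both high-fat arrays below. Cd3g, another chain of the complex, stood at 0.08 and -0.22 under the plain diet, and under high fat at 0.04 and -0.02. Its mean was -0.03 ± 0.13, close to chow throughout.

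Cd3d, the third chain of the complex, departed from Cd3e and Cd3g. It stood at 1.74 on the plain 6-week array, 0.52 on the plain 24-week array, and 0.19 and 0.14 on the high-fat arrays at 6 and 24 weeks. All 4 values were above chow, with a mean of 0.65 ± 0.75, and the spread came mainly from the plain 6-week array. In the RefSeq gene order Cd3d lies between Cd3g and Cd3e on chromosome 9, where Thy1 also lies. Each of the 3 chains has 1 probe, and the plain 6-week values of 1.74, 0.25 and 0.08 for Cd3d, Cd3e and Cd3g show how far probes for subunits of 1 complex differed on an array.

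Both coreceptors stayed near chow as gene means. Cd4, which binds MHC class II on helper T cells, stood at -0.02 and -0.17 under the plain diet, and under high fat at 0.11 and 0.19, a mean of 0.03 ± 0.16. Its 2 probes had means of -0.06 and 0.12. Cd8a, which binds MHC class I on cytotoxic T cells, stood at -0.03 and 0.13 under the plain diet, and under high fat at -0.15 and 0.03, a mean of -0.005 ± 0.12. That mean hides 2 probes that ran in opposite directions. The first stood at 0.12 and 0.47 under the plain diet, and under high fat at -0.50 and -0.17, while the second stood at -0.17 and -0.22 under the plain diet, and under high fat at 0.20 and 0.24.

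Cd79b, the B cell gene, stood at -0.23 and -0.46 under the plain diet, and under high fat at -0.00 and 0.08. Its mean was -0.15 ± 0.24, with the plain arrays the lower ones.

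Cd53 and Cd48, the genes of leukocytes in general, were the high pair. Cd53 stood at 1.51 and 1.60 under the plain diet, and under high fat at 1.18 and 1.02. All 4 arrays were at least 2.03-fold above chow, the mean was 1.33 ± 0.27 (2.51-fold), and Cd53 ranked 62 from the highest of all genes. Cd48 stood at 1.28 and 1.15 under the plain diet, and under high fat at 0.70 and 0.67. Its mean was 0.95 ± 0.31 (1.93-fold), at rank 148, and for both genes each plain array exceeded each high-fat array.

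Ordered by their means, the genes ran from Cd53 and Cd48 through Cd3d to Cd4, Cd8a, Cd3e, Cd3g and Cd79b, and then to Thy1. The ranges over the arrays of Cd4, Cd8a, Cd3e, Cd3g and Cd79b all overlapped, as did those of neighbours from Cd53 to Cd3d, while Thy1 at its highest (-1.83) lay below every value of the others. Of the 9 genes 3 (Cd3d, Cd48 and Cd53) were above chow on all 4 arrays, as were 20.7% of all genes, and 1 (Thy1) was below on all 4, as were 20% of all genes. The median of the 9 means was -0.005, beside 0.005 over all genes. At least 2-fold departures numbered 4 of the 9 on the plain 6-week array (5.95% of all genes), 3 on the plain 24-week array (3.43%), and 2 each on the high-fat arrays at 6 weeks (1.97%) and 24 weeks (2.49%). Because the genes were chosen on this contrast, these counts only describe them.

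**Figure D1:**
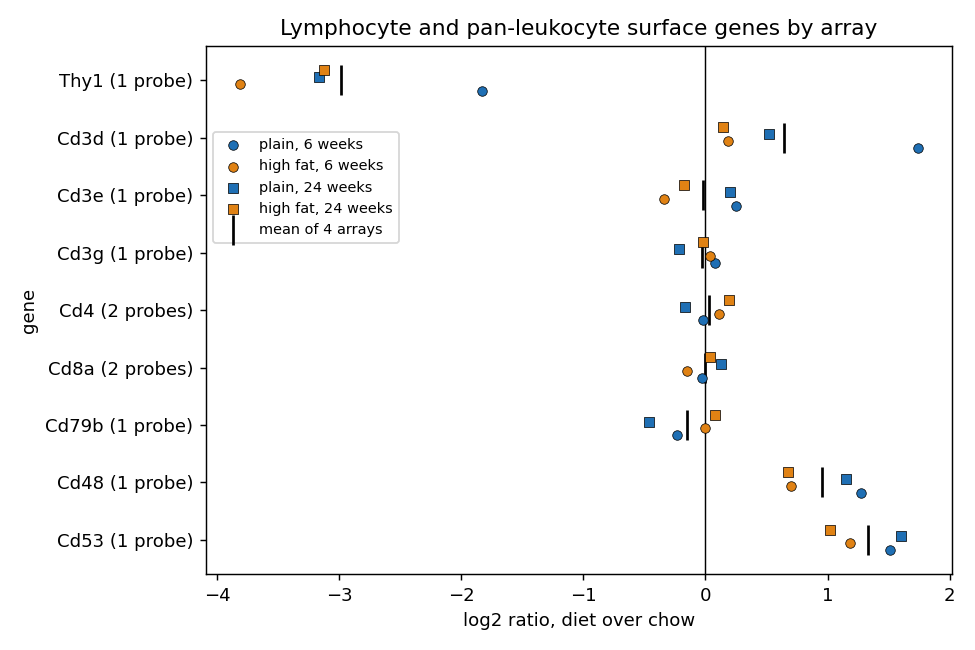
Log2 ratio of diet over chow (horizontal axis) for each of the 9 genes, with a point per array (circles 6 weeks, squares 24 weeks, blue plain diet, orange high fat) and a bar at the mean of the 4 arrays. Thy1 lies between -3.81 and -1.83, Cd48 and Cd53 lie between 0.67 and 1.60, and the other genes lie near 0 apart from Cd3d on the plain 6-week array (1.74).

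Other T cell genes, outside the 9, were tested for diet over chow with limma (adjusted p under 0.05, Benjamini-Hochberg over all genes). Of 33 measured, 3 rose and 1 fell, 12.1% of the list, where 12.1% of all genes were called (6.27% higher and 5.8% lower). The list median was 0.03, beside 0.005 over all genes. No gene of the list averaged -1 or lower. The single fall was Zap70, the kinase that binds phosphorylated CD3 chains, with log2 ratios of -0.44 and -1.17 under the plain diet, with -0.76 and -0.41 under high fat (mean -0.70 ± 0.14, limma SE; adjusted p = 0.0285). The lowest value of any of the 33 on an array was that of Zap70 on the plain 24-week array, -1.17. None of them lay below Thy1 on any array, but few of all genes did, since Thy1 was chosen for its fall.

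The 3 T cell genes that rose were the adaptor Fyb at 0.61 ± 0.15 (limma adjusted p = 0.0483), the chemokine receptor Ccr7, which guides naive T cells and mature dendritic cells to lymph nodes, at 0.50 ± 0.09 (adjusted p = 0.0211), and the phosphatase Ptpn22 at 0.47 ± 0.08 (adjusted p = 0.0182). Fyb and Ptpn22 are also made by myeloid cells. Leaving out an array lowered the calls of all genes from 12.1% to 2.1% (without the plain 24-week array), 5.56% (high-fat 24-week), 5.85% (high-fat 6-week) or 8.63% (plain 6-week), and the counts given here and below without an array are to be read against these shares. Of the 33 T cell genes 0 were called without the plain 24-week array (0 also without the high-fat 6-week array), 1 without the high-fat 24-week array and 5 without the plain 6-week array. Of the other genes at the T cell receptor, the CD3 zeta chain Cd247 averaged -0.27 ± 0.09 (adjusted p = 0.098), the CD8 beta chain Cd8b1 -0.26 ± 0.08 (adjusted p = 0.0862), Cd5 -0.01 ± 0.08 and the adaptor Lat 0.01 ± 0.09; none of these 4 passed, and they were picked after their values were seen. The costimulatory receptor Cd28 and the interleukin 7 receptor Il7r, picked in the same way, stood at 0.18 ± 0.12 and 0.12 ± 0.08. Also picked so, the adaptor Lcp2 averaged 0.43 ± 0.14 (limma adjusted p = 0.0981) and Bcl11b 0.40 ± 0.10 (adjusted p = 0.0514). Icos averaged 0.28 ± 0.11 (adjusted p = 0.159) and Gata3 -0.37 ± 0.14 (adjusted p = 0.134), and none of these passed.

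**Figure D2:**
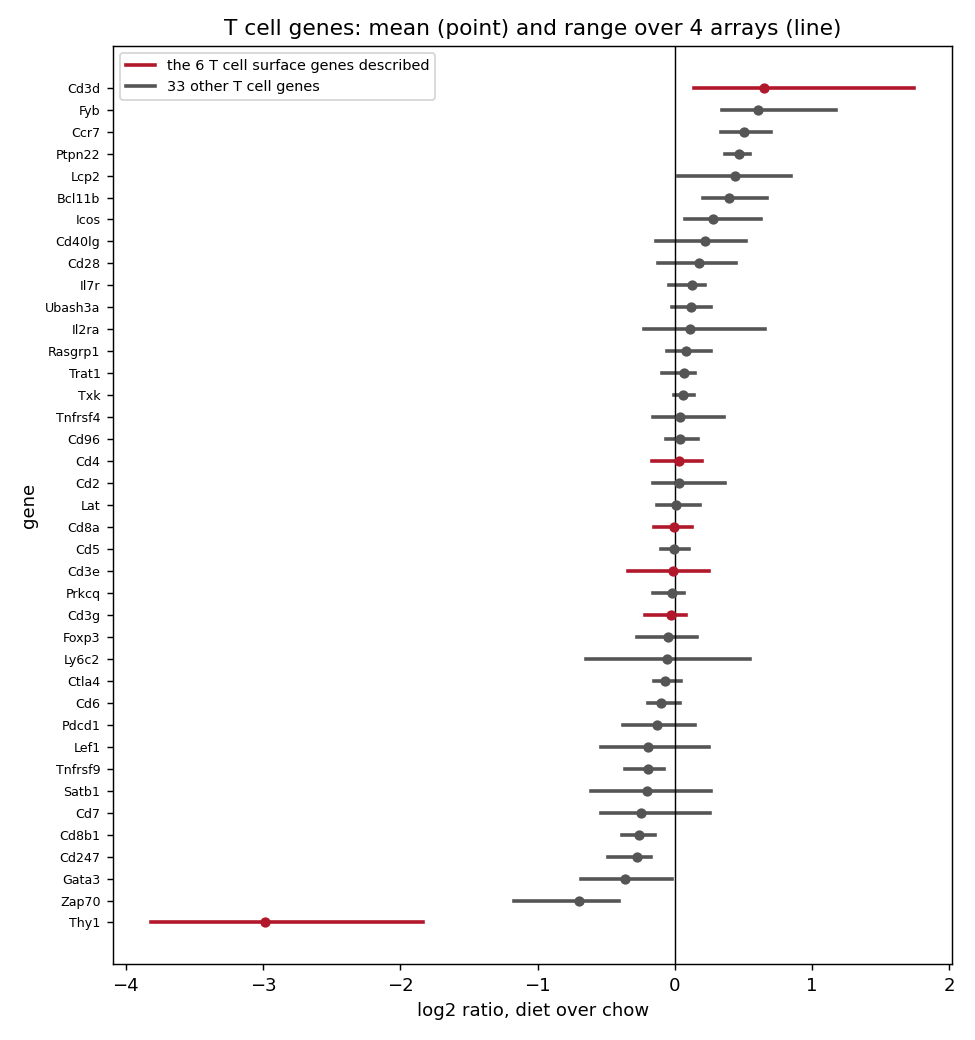
Log2 ratio of diet over chow for T cell genes, as the mean (point) and the range (line) over the 4 arrays, with the 6 T cell surface genes described here in red and the 33 others in grey. Thy1 at -2.98 stands apart at the bottom, and the next gene is Zap70 at -0.70.

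Thy1 is also made outside T cells, so lists of portal fibroblast and mesothelial genes and of neuronal genes were counted. Ratios hold no levels, so genes that liver barely expresses are counted alike. The part of these cells in the value of Thy1 was not tested. Of 19 measured genes of portal fibroblasts and mesothelium, 2 rose and 2 fell, 21.1% of the list beside 12.1% of all genes. The lowest mean was that of Msln, a mesothelial surface protein, at -0.46 ± 0.11 (limma adjusted p = 0.0428). Pdgfrb, the receptor for platelet-derived growth factor of mesenchymal cells, averaged -0.40 and fell (adjusted p = 0.0264), while the matrix proteins Dpt and Mfap4 rose by 0.57 and 0.52. With arrays scaled to a common spread 2 rose and 3 fell, and without single arrays 0 or 1 was called. Of 18 neuronal genes 1 rose (5.56% of the list), the neurofilament Nefl at 0.74 ± 0.11 (limma adjusted p = 0.0117). That call ended without the plain 24-week array (largest adjusted p = 0.074), and the lowest mean was that of Eno2 at -0.42. No gene of either list lay below Thy1 on any array, which says nothing of these cells, since Thy1 was chosen for its fall. The list medians were 0.07 and -0.04.

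The genes with the pattern most like that of Thy1 were found by the Euclidean distance of their 4 log2 ratios. They were Krtap17-1, a hair keratin-associated protein, at a distance of 0.61, then Ammecr1 (1.16), Calcb, a calcitonin-related peptide (1.30), Nudt12os (1.33), the fatty acid elongase Elovl3 (1.37) and Btbd11 (1.56). None of the 6 is on the lists of leukocyte genes used here, and each has 1 probe. Distances use the same ratios for which Thy1 was chosen, so only very low genes could lie near it. The lowest mean on any list was -1.33 (Vsig4), so these distances do not bear on cell types. Krtap17-1 stood at -1.97 and -3.04 under the plain diet, and under high fat at -3.23 and -3.18, so that it too was least low on the plain 6-week array. The nearest of the other 8 surface genes lay at a distance of 5.88.

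Natural killer and cytotoxic genes were mixed: of 22 measured 2 rose and 3 fell, with a median of 0.02. These were 22.7% of the list, beside 12.1% of all genes called. The granzyme Gzmk fell to a mean of -0.66 (limma adjusted p = 0.0125), the protease Ctsw to -0.61 (adjusted p = 0.0127) and Ifng to -0.38 (adjusted p = 0.0431), while the granule membrane protein Nkg7 rose by 0.46 (adjusted p = 0.0414). With arrays centred on their medians 1 rose and 3 fell, and without single arrays 2 or 3 of the 22 were called. Ctsw and Gzmk kept their calls without any 1 array, and Ifng lost it without each of them.

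B cell genes beside Cd79b also ran both ways. Of 24 measured 2 rose and 3 fell (20.8% of the list, beside 12.1% of all genes), with a median of -0.05. The adaptor Blnk rose by 1.38 ± 0.15 (limma adjusted p = 0.00507) and the kinase Btk by 0.61 ± 0.13 (adjusted p = 0.0352); macrophages make both. The B cell transcription factor Pax5 fell to a mean of -0.69 (adjusted p = 0.0264) and the low-affinity IgE receptor Fcer2a to -0.69 (adjusted p = 0.00767). Without the plain 24-week array 1 of the 24 was called, without the plain 6-week array 2, and without the high-fat 6-week array 3.

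Cd48 was set beside its kin. The SLAM receptors and their adaptors had 2 of 10 measured genes called (20%, beside 12.1% of all genes), both higher, and a median of 0.32. They were Cd84, a SLAM receptor of leukocytes and platelets, at 1.25 ± 0.18 (limma adjusted p = 0.012), and Ly9, also a SLAM receptor, at 0.92 ± 0.17 (adjusted p = 0.0209). Cd84 stood at 1.69 and 1.68 under the plain diet, and under high fat at 0.84 and 0.80. Both high-fat arrays thus lay below both plain arrays, as for Cd48 and for 36.4% of all genes. The receptors of Cd48 itself were not called: Cd2 averaged 0.03 ± 0.11 (adjusted p = 0.886) and Cd244a 0.26 ± 0.10 (adjusted p = 0.134), genes named for binding Cd48 after their values were seen. Without the plain 24-week array 0 of the 10 were called, and without the high-fat 6-week array 1, while 4 were called with arrays scaled to a common spread.

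Cd53 was set beside the other tetraspanins, membrane organisers with 4 membrane spans, of which 7 of 25 measured rose and none fell (28% of the list). The list median was 0.12. The largest were Tspan8 at 2.19 ± 0.20 (limma adjusted p = 0.003), Cd9 at 1.75 ± 0.19 (adjusted p = 0.0049), the lysosomal Cd63 at 1.67 ± 0.15 (adjusted p = 0.00273) and Tspan3 at 1.07 ± 0.17 (adjusted p = 0.0141). These 4 are made by many cell types, unlike Cd53. Cd37, the tetraspanin most restricted to lymphocytes, averaged 0.06 ± 0.09 (adjusted p = 0.664), and was also named after its value was seen. Without the plain 24-week array 3 were called, and without the plain 6-week or the high-fat 24-week array 4, with Cd9, Cd63 and Tspan8 called each time.

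**Figure D3:**
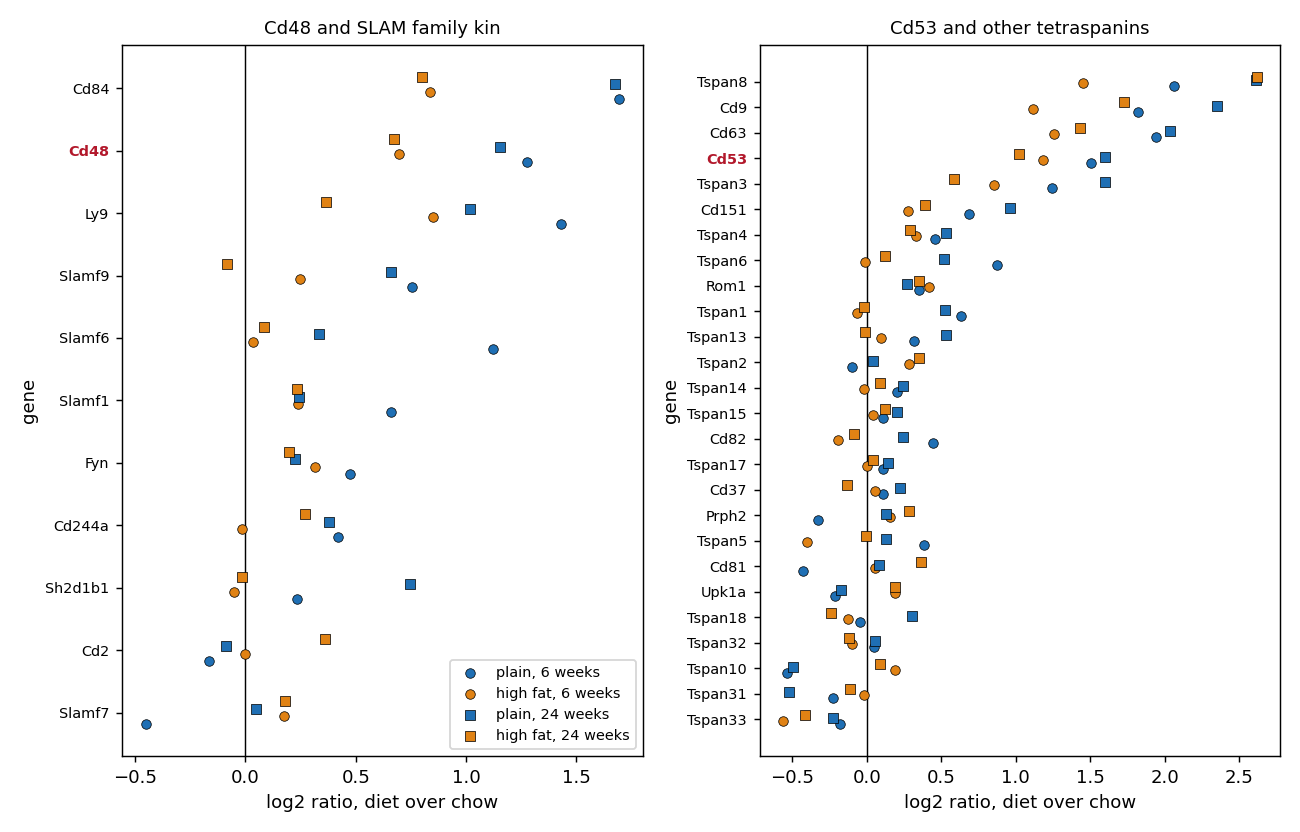
Log2 ratio of diet over chow on each of the 4 arrays for Cd48 with SLAM family genes and adaptors (left) and Cd53 with the other tetraspanins (right), ordered by the mean, with circles for 6 weeks, squares for 24 weeks, blue for the plain diet and orange for high fat. Cd48 lies between Cd84 and Ly9, and Cd53 lies below Tspan8, Cd9 and Cd63, while Cd2 and Cd37 lie near 0.

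Genes of leukocytes in general, outside the 9, had 8 of 31 measured higher and 3 lower, 35.5% of the list, with a median of 0.25. The signalling adaptors Tyrobp and Fcer1g, made mainly by myeloid and natural killer cells, rose by 1.62 ± 0.09 (limma adjusted p = 0.00116) and 1.59 ± 0.12 (adjusted p = 0.00192). The actin regulator Coro1a rose by 1.30 ± 0.15 and Arhgdib by 1.22 ± 0.20. Rac2, Itga4 and Cd47 fell by 0.53, 0.54 and 0.47 on the log2 scale, of which Cd47 is not confined to leukocytes. Ptprc, which encodes CD45, the defining surface protein of leukocytes, averaged 0.32 ± 0.08 (adjusted p = 0.0527). Ptprcap, a partner of CD45 in lymphocytes, averaged -0.09 ± 0.10; these last 5 genes were named after their values were seen. Without the plain 24-week array 3 of the 31 were called and without the high-fat 6-week array 7.

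Myeloid markers were counted beside Cd48 and Cd53. Of 24 measured, 11 rose, 12 did not pass and 1, Vsig4 of Kupffer cells, fell (-1.33, named after its value was seen), 50% of the list called. Other genes of Kupffer cells on the list ran both ways and did not pass. Clec4f, Marco and Adgre1 averaged 0.15, 0.21 and 0.46, and Cd163 -0.34, also named after their values were seen. S100a9, S100a8, Ctss and Lyz1 had the largest means, 2.70, 2.34, 2.32 and 2.22. By array their median was 0.81 (plain, 6 weeks), 0.72 (plain, 24 weeks), 0.36 (high fat, 6 weeks) and 0.23 (high fat, 24 weeks), while in the same order the median of the T cell list was 0.08, 0.06, -0.02 and -0.05. The part of myeloid RNA in the values of Cd48 and Cd53 was not tested. Without the plain 24-week array 7 of the 24 were called. Of 14 hepatocyte genes none was called for diet over chow, where 3 had an unadjusted p in limma under 0.05 (30.8% of all genes did). Tat and Alb, the means farthest from 0, averaged -0.72 and -0.54. These means join unlike diets. The list median was 0.05 and 0.36 under the plain diet, and under high fat -0.54 and -0.16. Alb stood at 0.07 and 0.39 under the plain diet, and under high fat at -1.34 and -1.28.

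What the added high fat changed was tested as high fat minus plain, in a model with a term for duration. None of the 9 genes passed (limma adjusted p under 0.05), where 10.8% of all genes did, 3.72% higher and 7.1% lower. An unadjusted p under 0.05 was found for 6 of the 9 and for 32.6% of all genes. Nearest to the threshold were Cd48, at -0.53 ± 0.14 (limma SE; adjusted p = 0.0535; 95% interval -0.85 to -0.20), and Cd3d, at -0.97 ± 0.26 (adjusted p = 0.0543; interval -1.57 to -0.36). Cd48 differed by -0.58 within 6 weeks and by -0.48 within 24 weeks, and Cd3d by -1.55 and -0.38.

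Cd3e was lower with high fat by a similar amount at both times, -0.58 and -0.37 (mean -0.48 ± 0.14; limma adjusted p = 0.0706), and so was Cd53, -0.33 and -0.58 (mean -0.45 ± 0.15; adjusted p = 0.0832). With arrays scaled to a common spread the difference of Cd48 shrank to -0.12 (limma adjusted p = 0.508) and that of Cd53 turned to 0.13. Thy1 differed by -1.98 within 6 weeks and by 0.05 within 24 weeks, so its mean of -0.97 ± 0.40 (adjusted p = 0.144; interval -1.91 to -0.03) came from the 6-week arrays. After that scaling the difference of Thy1 was -2.34 (adjusted p = 0.0413). Cd79b was 0.39 ± 0.15 higher (adjusted p = 0.126) and Cd4 0.24 ± 0.14 higher (adjusted p = 0.278). Cd3g and Cd8a differed by 0.08 (interval -0.26 to 0.42) and -0.11 (interval -0.43 to 0.21). The first probe of Cd8a, taken alone in a fit of all probes, was -0.63 ± 0.14 (adjusted p = 0.0328) and the second 0.41 ± 0.14 (adjusted p = 0.0848). In that fit Cd48 (adjusted p = 0.0478) and Cd3d (adjusted p = 0.0497) also passed.

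Both high-fat arrays lay below both plain arrays for 4 of the 9 genes, Cd3d, Cd3e, Cd48 and Cd53, as for 36.4% of all genes. Both lay above for Cd4 and Cd79b, 2 of the 9, as for 25% of all genes. For Cd8a, whose mean shows neither order, 1 probe was below and the other above.

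Leukocyte genes outside the 9 had calls for high fat, in counts added after the data were seen, beside 10.8% of all genes called. The shares called were 22.6% of general leukocyte, 30% of SLAM, 29.2% of myeloid and 16% of tetraspanin genes. The shares of T cell (9.09%), B cell (12.5%) and natural killer genes (13.6%) were smaller, the last close to that of tetraspanins. Median differences were -0.50 (myeloid), -0.40 (SLAM), -0.24 (natural killer), -0.20 (tetraspanin), -0.16 (general leukocyte), -0.07 (T cell) and -0.02 (B cell), beside -0.07 over all genes. An unadjusted limma p under 0.05 was found for 10 of 22 natural killer genes, 10 of 31 general leukocyte genes and 32.6% of all genes. Of the genes of leukocytes in general 7 of 31 fell and none rose, among them Was, a regulator of actin in blood cells, at -1.03 ± 0.23 (limma adjusted p = 0.0383), the small surface glycoprotein Cd52 at -0.93 ± 0.23 (adjusted p = 0.0473), and Coro1a and Arhgdib at -0.64 and -0.86. Of the SLAM genes 3 of 10 fell, Cd84 by 0.87, Slamf9 by 0.63 and Ly9 by 0.62 on the log2 scale. Of the tetraspanins 3 of 25 fell, Cd9, Cd63 and Tspan1, and Tspan10 rose. Of the myeloid genes 7 of 24 fell and none rose, with Spi1, which encodes the transcription factor PU.1, at -0.70 ± 0.14. On the T cell list 2 of 33 genes rose, Ly6c2 (1.07 ± 0.14), which monocytes also make, and Gata3 (0.60 ± 0.14). On the same list 1 fell, the adaptor Lcp2 (-0.58 ± 0.14, limma adjusted p = 0.0434). Which cells made the RNA of these genes was not tested. Of the B cell genes 2 of 24 rose, Cxcr5 (0.91 ± 0.14) and Pax5 (0.56 ± 0.14), and 1 fell, Cd40 (-1.16 ± 0.14). Of the natural killer and cytotoxic genes 3 of 22 fell and none rose, the receptor chains Klrd1, Klrk1 and Klrc1. Hepatocyte genes had the largest share of calls for high fat of the 10 lists, 64.3%: 7 of 14 fell and 2 rose, and albumin (Alb) differed by -1.53 ± 0.15 (adjusted p = 0.00962). The part of hepatocyte RNA in the differences of the leukocyte genes was not tested. Genes in this paragraph were named because they passed.

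All of these calls rest on 1 residual degree of freedom: with duration left out of the model none of the 13544 genes passed for high fat, in these lists or elsewhere. The falls of leukocyte genes also changed with the spread of the arrays. With all arrays scaled to a common spread 1 of the 31 general leukocyte genes fell and 1 rose, none of the SLAM genes was called, 4 myeloid genes fell and 3 rose, and 1 tetraspanin fell and 1 rose. With arrays centred on their medians, which moved the median difference of all genes from -0.07 to -0.03, 3 of the 31, 1 SLAM gene, 2 tetraspanins and 4 myeloid genes fell. The hepatocyte count stayed at 7 lower and 2 higher under both.

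Duration was tested as 24 minus 6 weeks in the same model. None of the 9 genes passed in limma, nor did any of the 13544 genes (0% called); an unadjusted p under 0.05 was found for 1 of the 9, Cd3d, and for 9.8% of all genes. Cd3d differed by -0.63 ± 0.26 (adjusted p = 0.494), with -1.22 within the plain diet and -0.05 within high fat. Thy1 differed by -0.32 ± 0.40 (adjusted p = 0.846), with -1.33 within the plain diet and 0.69 within high fat. Cd48 and Cd53 differed by -0.07 (interval -0.40 to 0.25) and -0.04 (interval -0.38 to 0.31). Both 24-week arrays lay below both 6-week arrays for Cd3g, 1 of the 9 (10.4% of all genes), and above them for the mean of Cd8a (13.9% of all genes), though for neither of its 2 probes.

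**Figure D4:**
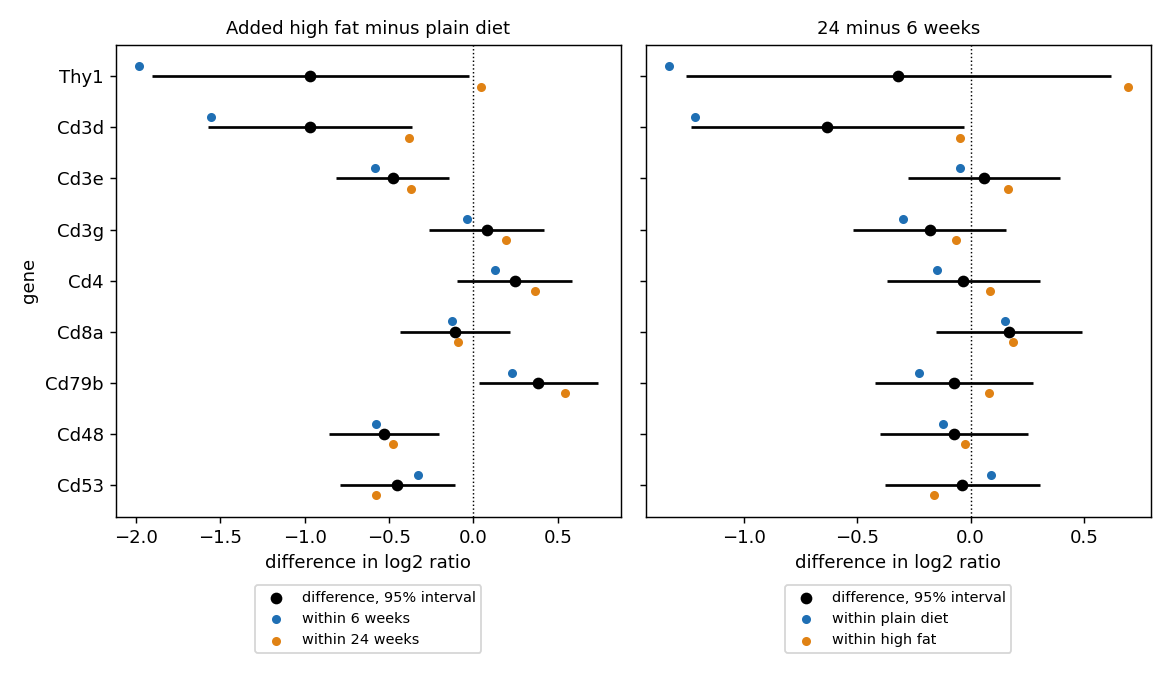
Difference in log2 ratio for each of the 9 genes, high fat minus plain diet (left) and 24 minus 6 weeks (right), with black points and lines for the fitted difference and its 95% interval and coloured points for the difference within each duration (left) or diet (right). For high fat, Cd3d, Cd3e, Cd48 and Cd53 lie below 0 within both durations, while Thy1 differs by -1.98 within 6 weeks and by 0.05 within 24 weeks.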

How the data were processed

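The deposited log10 ratios of Cy5 (diet) over Cy3 (chow) came from an Agilent G2505B scanner, GenePix Pro 4.1 and LOWESS in GeneSpring 7.2, per the series' design text. No source used here states how background was treated or which spots were filtered. Base 10 is an inference: in base 2 the interquartile range of the plain 6-week array would be a 13.5% difference in ratio, in base 10 it is 52.4%. Centring beyond LOWESS is unknown, and the deposited medians were -0.019, 0.006, -0.005 and 0.006 (plain and high fat at 6 weeks, then at 24 weeks).

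Values were converted to log2. Probes missing on any array (975) were left out. Of 28845 probes 17637 had 1 symbol, 64 several and 11144 none; symbols were updated by gene identifier to RefSeq (GRCm38.p6), which left 252 unmatched and unnamed. Probes of 1 gene were averaged (2718 genes had several).

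Tests used limma 3.58.1 in R 4.3.3 (lmFit, eBayes, two-sided, Benjamini-Hochberg over 13544 genes): the mean of 4 arrays against 0 (3 residual degrees of freedom) for the lists, and an additive model of high fat and duration (1 residual degree of freedom). Since every array is another condition, p-values reflect how conditions vary rather than how animals do. The fits were tested on simulated data under 3 models of the noise: with each gene's total SD, its residual SD and, added after those, its moderated SD. Changes in the mean over arrays were recovered under all 3. Known changes put in for high fat and duration were recovered only under the third and not at all under the other 2, so counts of calls for these contrasts, low ones included, depend on how variances are shared between genes.

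Members and lists (T cell, B cell, natural killer, general leukocyte, SLAM, tetraspanin, myeloid, portal fibroblast and mesothelial, neuronal, hepatocyte) were chosen with earlier results of these data known. Named were the 9 genes, per list up to 4 called genes whose 4 ratios share a sign (otherwise the 2 means farthest from 0), the 6 genes nearest to Thy1, the genes called for high fat in the lists, and genes said to be named after their values were seen. Calls per list were compared between settings as totals of both directions, a choice made after the separate counts had been seen; where a scaling moved the split, both directions are printed. Alternatives were centring, scaling, probe-level fits, the probe with the largest mean, robust eBayes, probes with 3 of 4 values, a threshold of 0.1, models without the other term, and leaving out each array.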

Additional observations from a re-analysis of the deposited data

Results flagged for a closer look

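For 2 of the 9 genes the ratios over chow had opposite signs on the plain and the high-fat arrays, as for 19.4% of all genes, and for 2 on the 6-week and the 24-week arrays, as for 4.19% of all genes. None of these differences passed in limma. Cd3e lay above chow on both plain arrays and below on both high-fat arrays, a difference of -0.48. Cd4 lay below chow on both plain arrays and above on both high-fat arrays, a difference of 0.24, but only in the mean of its 2 probes and in neither probe alone. Cd3g lay above chow on both 6-week arrays and below on both 24-week arrays, a difference of -0.18, and Cd8a the other way, a difference of 0.17, again in the mean of 2 probes and in neither alone. The opposite signs themselves were not tested.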

How the results depend on the processing

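For high fat, 1 of the 9 genes was called with arrays scaled to a common spread (11.1% of all genes), 2 with the probe of the largest mean (12.9%), 3 in the probe-level fit (15.8% of all probes) and 4 at a threshold of 0.1 (23.5% of all genes); for duration 0 were called under every alternative run. With the duration term left out, 0 genes of all 13544 were called for high fat, 0 in each of the 6 lists tested. Leaving out an array leaves no residual degree of freedom for high fat or duration, so these have no counts. With scaling, the differences of Cd53 for high fat (0.128) and of Cd48 and Cd53 for duration (0.0192 and 0.0438) changed sign.

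For diet over chow, a threshold of 0.1 was passed by 21.4% of all genes. On the lists it gave 8 of 33 T cell, 18 of 31 general leukocyte, 4 of 10 SLAM, 3 of 18 neuronal and 3 of 14 hepatocyte genes. SLAM genes called were 4 with scaling, the probe of the largest mean or the probe-level fit. Neuronal genes called were 2 with either of the last, and hepatocyte genes 1 with any of these. Of all genes 15.4% were called with scaling and 14.6% with the probe of the largest mean, and 10.3% of all probes in the probe-level fit. Without 1 array, calls of all genes ranged from 284 to 1169 (1634 with every array), and of the lists from 0 to 5 (T cell), 1 to 4 (B cell), 2 to 3 (natural killer), 3 to 10 (general leukocyte), 0 to 2 (SLAM), 3 to 5 (tetraspanin), 7 to 12 (myeloid), 0 to 1 (portal fibroblast), 0 to 1 (neuronal) and 0 to 1 (hepatocyte). Of the 51 list genes called, 16 were called without each array in turn.

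For high fat the lists gave, with centring (7.29% of all genes called), 3 general leukocyte, 1 SLAM and 4 myeloid genes. With scaling (11.1% of all genes) they gave 2 general leukocyte, 0 SLAM and 2 tetraspanin genes. At a threshold of 0.1 (23.5% of all genes) they gave 6 T cell, 5 SLAM, 8 tetraspanin and 13 myeloid genes. Tetraspanins numbered 7 with the probe of the largest mean (12.9% of all genes called) and 8 in the probe-level fit (15.8% of all probes). Centring on the median also moved the split for all genes called for high fat to 439 higher and 548 lower, from 504 and 962. The causes of these shifts were not tested. No replicate numbers pair the arrays; the model for high fat holds duration as a term. The number of arrays limits precision, and no signal over background was used here.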
